A study of Mus musculus with 45 samples.

Results

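Perivascular macrophages (pvMΦ) and microglia from brains of mice at postnatal day 21 (P21) were compared across all measured genes. The comparison used every library that the labels place in these groups, 4 of pvMΦ and 5 of microglia, 9 of the 45 libraries of the series. All 9 came from untreated C57BL/6J mice of the genotype Cx3cr1GFP/wt kept in a specific-pathogen-free facility, so that every group, microglia included, carried the GFP reporter in one allele of Cx3cr1. The series also holds macrophages of the meninges (mMΦ) and other ages. The 3 mMΦ libraries at P21 and the pvMΦ and microglia libraries at P10 (3 and 3) and P56 (4 and 5), all of the same strain and genotype, were used for comparison. RNA of sorted cells was amplified with a low-input kit that keeps no strand and sequenced as single reads, and the sources used here do not name the markers of the sort. The labels give 2 batches named as projects, S232 (3 libraries of each population) and S276 (pvMΦ replicate 4, microglia replicates 4 and 5). The step that sets these projects apart is not named there. The series' design states that cells came from individual mice, but no label ties a library to a mouse, so p-values measure the spread between these libraries. Levels are CPM, the deposited counts scaled to the size of each library and not to gene length, so they compare libraries and not genes. Lists of values follow the replicate numbers, 1 to 4 for pvMΦ and 1 to 5 for microglia. The last pvMΦ value and the last 2 microglia values are those of S276. A log2 fold change is that of pvMΦ over microglia from the fit, with its standard error after the ± sign.

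Perivascular macrophages lie between the vessel wall and the limiting membrane of the brain, where they take up material from blood and interstitial fluid through scavenger receptors and can present antigen. Microglia are the resident macrophages of the parenchyma, depend on signals through the receptor Csf1r and on TGF-beta, and sense nucleotides through P2ry12. Both arise from early yolk-sac precursors and share much of the myeloid programme, while Mrc1 and Lyve1 are commonly used to recognise the former and P2ry12, Tmem119 and Sall1 the latter.

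The 9 libraries held 15967501 to 22737811 counts. PvMΦ replicate 1 stood apart. In it 8091 genes reached 1 CPM, against 9357, 11074 and 11521 in the other pvMΦ libraries and 10222 to 11183 in microglia. Of 4648 genes at 20 CPM or more in each of the other 3 pvMΦ libraries, 345 were under 1 CPM in replicate 1, against 66 of 4144 for replicate 2 and 0 to 12 for the other 7 libraries. Microglia replicate 1 held Xist at 121 CPM and Y-linked genes at a summed 74.4 CPM, so transcripts of both sexes, while the other 8 libraries had Xist at 0 to 7.21 CPM and Y-linked genes at 124 to 275 CPM. Results are therefore also given without these libraries.

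At P21, 545 genes were higher and 346 lower in pvMΦ than in microglia. These genes passed a Benjamini-Hochberg adjusted p under 0.05 in edgeR's quasi-likelihood test with a term for the project. They are 7.71% of the 11558 genes tested, 4.72% higher and 2.99% lower, and are called higher or lower below. The median log2 fold change of the higher genes was 2.16 and that of the lower genes -1.77. The higher side reached further, since 146 higher and 63 lower genes passed 32-fold. Among the called genes, 480 of the higher ones (4.15% of all tested) and 324 of the lower ones (2.8%) had no overlap between the 4 pvMΦ and 5 microglia libraries. Within S276 alone, 38.4% of all genes tested were higher in the pvMΦ library than in both microglia libraries and 41.1% were lower than in both. Without pvMΦ replicate 1 the counts were 616 higher and 484 lower (8.92% of 12325 tested, 5% higher and 3.93% lower). Without microglia replicate 1 they were 368 and 218, and without both they were 445 and 316. They fell furthest without pvMΦ replicate 4, the only one of S276, to 306 and 198, and the lower count was 221 without microglia replicate 4. Within S232 alone, with 3 libraries a side, 236 genes were higher and 101 lower (3.07% of 10968 tested, 2.15% higher and 0.921% lower).

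**Figure D1:**
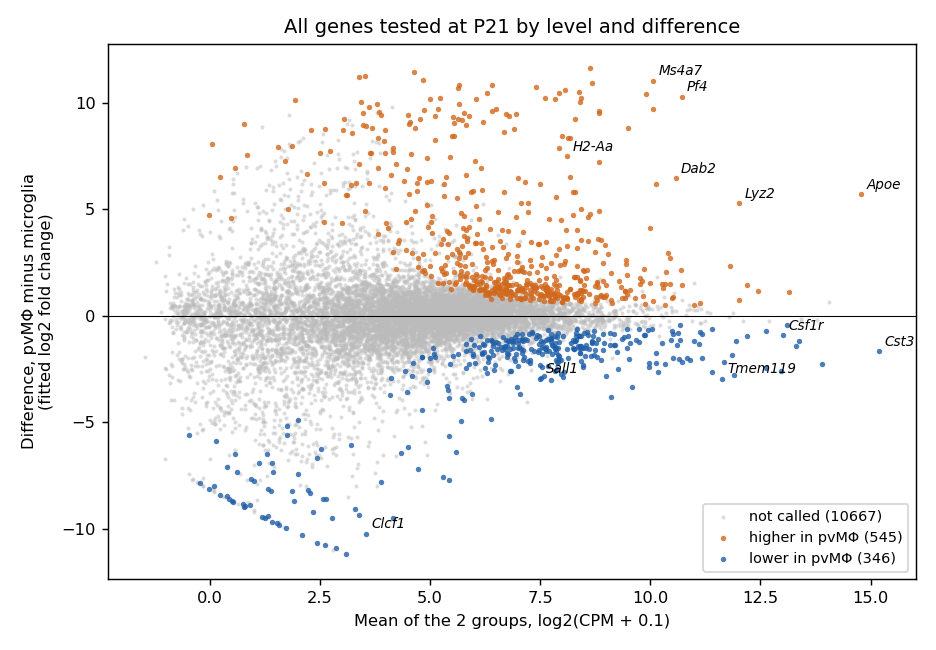
Each point is 1 of the 11558 genes tested, with the mean level of both groups on the horizontal axis (log2 CPM) and the fitted log2 fold change of pvMΦ over microglia on the vertical axis. The 545 higher genes (orange) reach past 10 on the log2 scale at high levels, as for Pf4 and Ms4a7, while lower genes (blue) at high levels, such as Cst3, lie nearer to 0 and the largest negative values belong to genes of low level.

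The receptors by which border macrophages are recognised set the groups far apart. Mrc1, the mannose receptor, was at 1931, 1809, 3003 and 2145 CPM in pvMΦ and at 25.9, 41.8, 26.4, 45.3 and 14.9 CPM in microglia (log2 fold change 6.204 ± 0.39, adjusted p = 3.86e-05). The hyaluronan receptor gene Lyve1 was at 658, 589.9, 1967 and 425 CPM against 3.18, 0.219, 3.56, 0.0496 and 0.195 CPM (log2 fold change 9.54 ± 0.99, adjusted p = 6.44e-04), and pvMΦ replicate 3 stood well above the other pvMΦ libraries. Cd163, which takes up haemoglobin bound to haptoglobin, was at 533, 654, 658 and 833 CPM against 1.13, 0.109, 0.250, 0.496 and 0.326 CPM in microglia, a ratio of means of 1447. Stab1, a scavenger receptor, was detected in both populations, at 715 to 1149 CPM in pvMΦ and 104 to 161 CPM in microglia (log2 fold change 2.88 ± 0.22, adjusted p = 1.08e-04), so here the separation was one of degree. None of these 4 genes overlapped between the groups. The markers of the sort are not named in the sources used, so the part of the sort in these differences was not tested.

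Secreted and enzymatic markers followed the same order. Pf4, a chemokine, stood at 3883, 3439, 3311 and 2770.1 CPM in pvMΦ and 5.33, 1.59, 3.00, 0.892 and 2.48 CPM in microglia (log2 fold change 10.30 ± 0.50, adjusted p = 1.40e-05). F13a1, the coagulation factor XIII A chain, was at 1380.4, 1394, 3072 and 2672 CPM against 7.43, 0.328, 0.999, 1.64 and 2.54 CPM (log2 fold change 9.72 ± 0.95, adjusted p = 4.61e-04). The membrane protein gene Ms4a7 was at 2343, 2505, 1992 and 1772 CPM against 2.64, 0.328, 1.12, 0.396 and 0.652 CPM (log2 fold change 11.04 ± 0.61, adjusted p = 2.43e-05). For each of them the lowest pvMΦ library was far above the highest microglia library, as it was for Cbr2, a carbonyl reductase, at 1699 to 2366 CPM against 0.437 to 2.85 CPM. Apoe, the main lipid carrier of the brain, was at 62111, 70254, 63961 and 23433 CPM in pvMΦ and 1886, 1953, 2176, 208 and 170.3 CPM in microglia (log2 fold change 5.70 ± 0.38, adjusted p = 5.82e-05). Both populations held less Apoe in S276, and the log2 ratio of means was 5.03 within S232 and 6.95 within S276. All 29 genes of a list of border macrophage markers were tested and called higher, with a median log2 fold change of 9.48 against 0.00 over all genes tested. Of these genes 26 to 28 were called when each library was left out in turn, 28 without pvMΦ replicate 1 and 27 within S232. The list was chosen with earlier results of these data known, so its count describes the difference and does not test it.

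**Figure D2:**
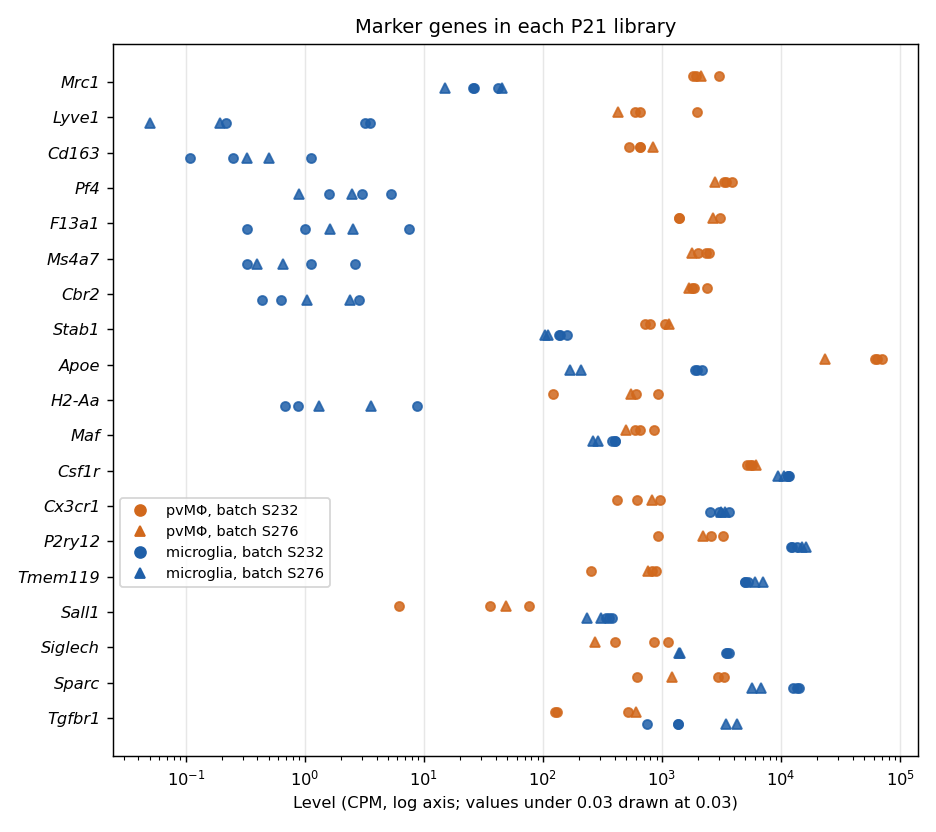
Level in CPM on a log axis of the genes followed across the text, 1 point per library, with pvMΦ in orange, microglia in blue, circles for S232 and triangles for S276. The genes from Mrc1 to Maf lie to the right in pvMΦ with the gap smallest for Maf, those from Csf1r to Tgfbr1 lie to the right in microglia, and Sall1 spans the widest range within pvMΦ of the lower genes.

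The genes that mark microglia were lower in pvMΦ but were not absent. P2ry12, the ADP receptor that guides microglial processes, was at 3256, 2584, 918 and 2194 CPM in pvMΦ and 13527, 12233, 12299, 15091 and 16271 CPM in microglia (log2 fold change -2.57 ± 0.32, adjusted p = 0.0015). Tmem119 was at 889, 832, 251 and 767 CPM against 4978, 4962, 5230.1, 7071 and 6028 CPM (log2 fold change -2.96 ± 0.34, adjusted p = 9.76e-04). The microglial transcription factor gene Sall1 was at 35.8, 76.0, 6.14 and 49.1 CPM against 356, 337, 383, 307 and 237 CPM (log2 fold change -2.93 ± 0.61, adjusted p = 0.0195), a call lost without pvMΦ replicate 4 or microglia replicate 3. In each case pvMΦ replicate 3 was the lowest library. The lectin gene Siglech (log2 fold change -2.185 ± 0.26, adjusted p = 0.00122) and the matrix protein gene Sparc (log2 fold change -2.47 ± 0.42, adjusted p = 0.00768) were lower as well. Cx3cr1, the fractalkine receptor whose locus carries the reporter, was at 422, 968, 611 and 825 CPM against 3649.6, 2542, 2997, 3359.5 and 3120.5 CPM (log2 fold change -2.09 ± 0.25, adjusted p = 0.00119). Csf1r, the receptor for the survival factors of both populations, was the least different, at 5183, 5474, 5699 and 6138 CPM against 11752, 11408, 11351, 10528 and 9379 CPM (log2 fold change -0.92 ± 0.11, adjusted p = 0.00119).

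Of 24 microglial markers tested, 23 were lower in pvMΦ and none higher, with a median log2 fold change of -2.48. When each library was left out, 19 to 23 were lower, with 23 without pvMΦ replicate 1, and within S232 alone 15 of 24 were. This list too was chosen with earlier results of these data known, so its count is no test. The largest difference was that of Sall3, a zinc finger gene related to Sall1, at 0.615 to 5.33 CPM in pvMΦ and 41.6 to 68.3 CPM in microglia (log2 fold change -4.43 ± 0.70, adjusted p = 0.00575). It was followed by the interleukin 7 receptor gene Il7r (log2 fold change -3.86 ± 0.96, adjusted p = 0.0438), whose call was lost in 8 of 9 fits that left out a library. The adhesion receptor gene Adgrg1 (log2 fold change -3.82 ± 0.34, adjusted p = 2.79e-04) and the fructose transporter gene Slc2a5 (log2 fold change -3.35 ± 0.29, adjusted p = 2.58e-04) came next. Gal3st4, the remaining marker, was at 0.364 to 1.72 CPM against 5.76 to 10.8 CPM (log2 fold change -2.71 ± 0.95, adjusted p = 0.147). Marker levels were also taken as a share of the mean of microglia of the same project. The median share over the 24 markers was 22.6% in pvMΦ replicate 1, 23.8% in replicate 2, 7.01% in replicate 3 and 15.2% in replicate 4. The lowest share of a single marker was 0.742% (Il7r in replicate 4). In bulk samples a smaller number of microglia among the sorted cells and a lower level per cell cannot be told apart. The sum over these markers was 52671, 47069.8, 17245 and 27557 CPM in pvMΦ and 126284 to 167173 CPM in microglia. The part of this signal in the other differences was not tested.

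The 15 largest folds among higher genes without overlap, at 5 CPM or more in pvMΦ, were led by the membrane protein gene Ms4a4a. It was at 721, 961, 682 and 812 CPM in pvMΦ and 0.700, 0.109, 0.0624, 0.0991 and 0.261 CPM in microglia, a ratio of means of 3224 (log2 fold change 11.63 ± 0.62, adjusted p = 1.84e-05). The C-type lectin gene Clec4n was at 734 to 927 CPM against 0.0991 to 1.02 CPM, and Cd209f at 190.1 to 667 CPM against 0.0496 to 0.539 CPM. Mgl2, a galactose-binding lectin, was at 281 to 786 CPM against 0 to 1.08 CPM, and the ficolin gene Fcna at 288 to 1049 CPM against 0 to 1.18 CPM. All 5 were high in every pvMΦ library. Tslp, an epithelial-type cytokine, was at 159, 92.7, 74.8 and 75.0 CPM in pvMΦ and at most 0.125 CPM in microglia (log2 fold change 10.84 ± 0.82, adjusted p = 1.10e-04).

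Other genes of this group varied several-fold or more among pvMΦ. Areg, the growth factor amphiregulin, was at 72.7, 13.2, 3.50 and 2.25 CPM with no count in any microglia library, at least 675-fold higher from 3 counts over the microglia group, and at least 187-fold without pvMΦ replicate 1. Such bounds take in counting error alone, as amplified reads that carry no molecular identifier can be copies of 1 molecule. The call of Areg was lost in each of the 9 fits that left out a library. The amino acid transporter gene Slc7a13 was at 61.7, 12.8, 4.32 and 4.14 CPM and at no count in microglia (at least 611-fold higher, and 208-fold without pvMΦ replicate 1). Its call was lost in 8 of those fits. Tlr8, a sensor of single-stranded RNA, was at 97.2, 1.72, 56.9 and 74.1 CPM against at most 0.0547 CPM, with 2 counts in all microglia libraries together. The serpin gene Serpinb8 was at 1.96, 169.95, 122 and 103 CPM against at most 0.187 CPM. Retnla, a secreted marker of alternative activation, was at 7.83, 89.8, 411 and 114 CPM against at most 0.215 CPM. PvMΦ replicate 1 was the highest library for Areg, Slc7a13 and Tlr8 and the lowest for Serpinb8 and Retnla.

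The 15 largest folds among lower genes were of another kind: levels in microglia were low and pvMΦ had few or no counts. The zinc transporter gene Slc39a4 was at 8.08, 31.4, 3.50, 20.7 and 20.1 CPM in microglia with no count in pvMΦ, at least 458-fold lower from 3 counts over the pvMΦ group, again for counting error alone. Mrgpre, an orphan receptor gene (at least 394-fold lower), Adtrp, a hydrolase of fatty acid esters (at least 291-fold), the kinase gene Camkk1 (at least 228-fold), Myo18b (at least 175-fold, and 114-fold without microglia replicate 2) and Zfyve28 (at least 158-fold) also had no count in pvMΦ. Clcf1, a cytokine of the interleukin 6 family, was at 19.8, 4.54, 21.8, 36.2 and 33.8 CPM in microglia and had 1 count in all pvMΦ libraries together. B3galt5, Zbed5, Dusp27, Apobec2, Srl, Ephb3, Slc18a2 and Pear1 had 1 to 3 counts over the 4 pvMΦ libraries. The highest of these in microglia was the galactosyltransferase gene B3galt5, at 6.73, 13.9, 64.7, 35.5 and 55.9 CPM. These genes spread widely among microglia too, as for Camkk1 at 0.215 to 13.5 CPM and Srl at 0.125 to 33.4 CPM. The calls of Mrgpre, Myo18b, Zfyve28, Camkk1, Srl and Pear1 were lost in 2 to 7 of the 9 fits that left out a library.

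Among the called genes with the highest levels, lysosomal proteases and secreted proteins went both ways. The cysteine protease gene Ctsb was at 13064, 14055, 14664 and 8821 CPM in pvMΦ and 6456, 6696, 5763, 4950.1 and 4281 CPM in microglia (log2 fold change 1.12 ± 0.10, adjusted p = 2.40e-04), and Ctsc was higher too (log2 fold change 2.36 ± 0.12, adjusted p = 1.40e-05). The protease genes Ctsd (log2 fold change -1.42 ± 0.19, adjusted p = 0.00201) and Ctss (log2 fold change -1.18 ± 0.22, adjusted p = 0.0118) were lower, the latter not without pvMΦ replicate 4. Cst3, the protease inhibitor cystatin C, was at 29391, 24012, 9133 and 11982 CPM against 70843, 70085, 72061, 33061 and 34368 CPM (log2 fold change -1.65 ± 0.28, adjusted p = 0.00816). Lyz2, lysozyme, was at 11214, 8537, 8599 and 4125 CPM in pvMΦ and 277, 312, 321, 66.2 and 71.5 CPM in microglia (log2 fold change 5.30 ± 0.22, adjusted p = 5.46e-06), with both populations lower in S276. Selenop, a selenium carrier (1.15 ± 0.09), Dab2, a clathrin adaptor (6.46 ± 0.21), and the lipopolysaccharide co-receptor gene Cd14 (1.44 ± 0.27) were higher on the log2 scale. Fcrls (-0.71 ± 0.10), Serinc3 (-0.43 ± 0.09, not called in 4 of 9 fits that left out a library) and Selplg, the ligand of P-selectin (-2.77 ± 0.35), were lower.

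Of the scavenger and endocytic receptors, 12 were higher and 2 lower of 20 tested, with a median log2 fold change of 4.40. Beside Mrc1, Lyve1 and Cd163, the phosphatidylserine receptor gene Timd4 was at 76.5, 53.0, 79.4 and 81.4 CPM in pvMΦ and 0.323, 0.0547, 0.0624, 0 and 0 CPM in microglia (log2 fold change 9.73 ± 1.04, adjusted p = 7.46e-04). Cd36, a receptor for lipids and apoptotic cells, was at 779, 1039, 935 and 906 CPM against 1.29, 0.109, 0.187, 6.59 and 14.4 CPM (log2 fold change 9.62 ± 1.09, adjusted p = 9.71e-04). The 2 lower members were Lrp1, a lipoprotein receptor (log2 fold change -2.09 ± 0.28, adjusted p = 0.00201), and Mertk, a kinase receptor for clearance of apoptotic cells (log2 fold change -1.75 ± 0.44, adjusted p = 0.0438). Each population thus had uptake receptors at a higher level than the other. The endosomal glycoprotein gene Cd68 was at 1482 to 2419.7 CPM against 1151 to 2012 CPM (log2 fold change 0.26 ± 0.10, adjusted p = 0.196). The higher members numbered 10 to 13 when each library was left out. The lower members numbered 1 without any of 7 libraries, or 3 without pvMΦ replicate 1, and 2 only without pvMΦ replicate 2.

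Of C-type lectins and Siglecs, 14 were higher and 2 lower of 24 tested, with a median log2 fold change of 3.84. Clec10a was at 270.3, 540.3, 623 and 381 CPM in pvMΦ and 1.02, 0.0547, 0.250, 0.446 and 0.0652 CPM in microglia (log2 fold change 10.21 ± 0.78, adjusted p = 1.13e-04). Siglech and Clec5a (log2 fold change -0.85 ± 0.18, adjusted p = 0.0191) were the lower pair, of which 1 was called without pvMΦ replicate 4 or microglia replicates 1, 3 or 5. Lgals9, a galectin gene, at 490.2 to 879 against 622 to 1016 CPM (log2 fold change -0.26 ± 0.16, adjusted p = 0.473), and Cd33 (-0.51 ± 0.24 , adjusted p = 0.299) did not pass. Of the Ms4a family, whose members span the membrane several times, 5 of 6 tested were higher and none lower, with a median of 3.70. Ms4a6c was at 711, 627, 632 and 484 CPM against 47.9, 34.9, 41.0, 26.8 and 31.3 CPM (log2 fold change 4.05 ± 0.15, adjusted p = 3.82e-06). Ms4a6b was at 908 to 1477 CPM against 177 to 279 CPM (log2 fold change 2.43 ± 0.17, adjusted p = 7.61e-05). Both were well above 0 in microglia, unlike Ms4a4a and Ms4a7. Ms4a4c was at 219, 47.9, 15.9 and 21.1 CPM in pvMΦ and 0.162 to 11.9 CPM in microglia (log2 fold change 3.35 ± 1.23, adjusted p = 0.168). Counts within the Cd209 and Ms4a families may be split between near-identical copies.

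Of genes of iron and haem handling, 10 were higher and 2 lower in pvMΦ of 18 tested, with a median log2 fold change of 1.37. The higher ones spanned the steps from uptake, by Cd163, to export. Hmox1, the haem-degrading oxygenase, was at 508, 202, 295 and 155 CPM in pvMΦ against 8.99, 56.9, 6.99, 34.5 and 18.7 CPM in microglia (log2 fold change 3.47 ± 0.70, adjusted p = 0.0175), a call lost without pvMΦ replicate 4. The biliverdin reductase gene Blvrb was at 370 to 609 CPM against 35.8 to 70.9 CPM (log2 fold change 3.26 ± 0.17, adjusted p = 1.75e-05). The ferritin genes Fth1 (log2 fold change 1.43 ± 0.19, adjusted p = 0.00191) and Ftl1 (log2 fold change 2.04 ± 0.19, adjusted p = 3.17e-04) were higher as well. So were the iron exporter gene Slc40a1 (log2 fold change 1.64 ± 0.20, adjusted p = 0.00123) and the transferrin gene Trf (log2 fold change 0.75 ± 0.10, adjusted p = 0.00171). Cp, the ferroxidase ceruloplasmin, was at 233, 168, 314 and 288 CPM against 3.18, 0.219, 3.996, 0.843 and 8.01 CPM (log2 fold change 6.46 ± 0.90, adjusted p = 0.00274). The metal transporter gene Slc11a1 (log2 fold change -0.81 ± 0.14, adjusted p = 0.00888) and Lrp1 were lower, with 1 of them left without pvMΦ replicate 4. Hpgd (777 to 1446 CPM against 809 to 1034 CPM) and Aco1 did not pass (adjusted p = 0.284 and 0.63).

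Antigen presentation by MHC class II split by step, with 4 members higher and 2 lower of 10 tested and a median log2 fold change of -0.27. The genes of the peptide-binding chains were higher. H2-Aa was at 929, 122, 601 and 553 CPM in pvMΦ and 8.78, 0.875, 0.687, 3.57 and 1.30 CPM in microglia (log2 fold change 7.503 ± 0.998, adjusted p = 0.0021). H2-Ab1 was at 1909, 95.0, 859.6 and 676 CPM against 36.4, 25.5, 25.4, 18.7 and 37.3 CPM (log2 fold change 4.93 ± 0.73, adjusted p = 0.0037), and H2-Eb1 at 1069, 116, 523 and 344 CPM against 2.80, 0.328, 0.874, 0.347 and 2.93 CPM (log2 fold change 8.45 ± 1.01, adjusted p = 0.00123). The invariant chain gene Cd74 was at 4175, 577, 1953 and 1089.9 CPM against 131, 131, 156, 56.6 and 49.8 CPM (log2 fold change 4.14 ± 0.48, adjusted p = 0.00104). For all 4 genes pvMΦ replicate 1 was the highest and replicate 2 the lowest library, with no overlap with microglia. The peptide-exchange gene H2-DMa (log2 fold change -1.18 ± 0.29, adjusted p = 0.0415) and Ctss, whose protease trims the invariant chain, were lower. Without any one library the higher count stayed at 4, while the lower count was 3 without pvMΦ replicate 1 and 0 or 1 without any other. H2-DMb1 (61.4 to 128 CPM against 96.5 to 192 CPM, log2 fold change -0.54 ± 0.27, adjusted p = 0.34) and H2-Ob (log2 fold change -1.503 ± 1.14, adjusted p = 0.57) did not pass.

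Interferon response genes were higher as a group, 15 of 26 tested with none lower and a median log2 fold change of 3.39. Summed over the list, pvMΦ stood at 3885, 3311, 3651 and 3604 CPM and microglia at 547, 497, 470.1, 676 and 770.1 CPM, with no overlap. Within S276 the pvMΦ library lay above both microglia libraries for 24 of the 26 genes (38.4% of all genes tested). The count was 8 of 25 within S232, and 9 to 16 when each library was left out, the lowest without pvMΦ replicate 4. Ifi203, a DNA-binding protein of the p200 family, was at 52.5, 37.7, 33.4 and 75.6 CPM in pvMΦ and had 1 count in all microglia libraries together. Its family member Ifi207 was at 357, 435, 423 and 344 CPM against 0.646, 0.383, 0, 0.446 and 0.0652 CPM (log2 fold change 10.23 ± 0.72, adjusted p = 7.67e-05). Ifi211 was at 42.4, 17.1, 45.2 and 31.8 CPM against 1.78, 0, 0, 0.149 and 0.0652 CPM (log2 fold change 6.59 ± 1.60, adjusted p = 0.0382), a call lost in 7 of 9 fits that left out a library. Each of these 3 genes was near 0 in microglia. Ifitm2, a membrane restriction factor, was at 136, 119.7, 156 and 107 CPM against 0.754, 0.601, 1.998, 0.496 and 0.391 CPM (log2 fold change 7.27 ± 0.50, adjusted p = 7.18e-05). The regulator genes Irf9 (112 to 253 CPM against 82.4 to 174 CPM, adjusted p = 0.133) and Irf1 (69.6 to 119.97 CPM against 61.8 to 121 CPM, adjusted p = 0.814) did not pass. The close similarity of the Ifi200 genes makes their single counts uncertain.

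The promoters of the interferon list were searched for the element of the interferon response. Of the 30 listed genes, 23 had an entry among the RefSeq promoters (GRCm38.p6), and the 250 bases before the gene start were read on both strands. The interferon-stimulated response element was spelled as GAAA, any 2 bases and GAAA. It was present in 11 of the 23 genes (47.8%), and in 40.7% of the list's windows against 2.98% of all 32851 windows. The list was made of interferon response genes, so this share describes the choice of the list and not pvMΦ. Of those 11 genes, 7 were higher, 3 were tested and not called, and 1 was not tested, beside 15 higher of 26 tested in the whole list. For comparison, the element was in 1 of 23 border macrophage markers and in 0 of 16 microglial markers with an entry. The PU.1 core GAGGAAGT, the site of a factor common to macrophages, was in 2.44% of all windows and in 1, 0 and 0 genes of the border, microglial and interferon lists. The promoters of the 3 higher interferon genes with the element and the largest folds, chosen after their values were seen, follow as 5′ to 3′ in the direction of the gene with the match in capitals. A match describes these letters only.
Ifi203 (chr1:173942493-173942742, minus strand): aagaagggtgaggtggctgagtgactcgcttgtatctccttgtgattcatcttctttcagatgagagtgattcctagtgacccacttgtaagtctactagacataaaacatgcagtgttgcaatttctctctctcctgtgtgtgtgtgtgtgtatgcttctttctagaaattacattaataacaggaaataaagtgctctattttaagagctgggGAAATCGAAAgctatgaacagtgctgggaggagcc
Ifi207 (chr1:173741810-173742059, minus strand): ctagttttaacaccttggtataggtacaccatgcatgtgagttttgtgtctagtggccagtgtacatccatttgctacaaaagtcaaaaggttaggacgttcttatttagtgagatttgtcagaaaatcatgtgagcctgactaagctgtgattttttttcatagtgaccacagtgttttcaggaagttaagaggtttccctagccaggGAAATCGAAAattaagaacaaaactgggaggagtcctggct
Ifitm2 (chr7:140955962-140956211, minus strand): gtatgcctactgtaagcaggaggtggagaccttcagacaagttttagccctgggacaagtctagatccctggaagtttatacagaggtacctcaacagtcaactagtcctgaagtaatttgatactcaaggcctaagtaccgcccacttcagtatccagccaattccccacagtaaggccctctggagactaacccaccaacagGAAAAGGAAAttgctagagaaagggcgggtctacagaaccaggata
In these windows the match began 35, 41 and 46 bases before the gene start. The matched letters of Ifi203 and Ifi207 were the same.

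Ligands and receptors of chemokine and cytokine signalling differed in their counts. Of the ligands, 10 were higher and none lower of 24 tested, with a median log2 fold change of 2.81, and 9 to 10 were higher when each library was left out. Beside Pf4, the CCR2 ligand gene Ccl7 was at 693, 1077, 1219 and 660.4 CPM in pvMΦ and 1.78, 0.383, 15.9, 7.19 and 5.54 CPM in microglia (log2 fold change 7.21 ± 0.97, adjusted p = 0.0022). Ccl8 was at 158, 105, 353 and 109 CPM against 0.431, 0, 0, 0.545 and 0.130 CPM (log2 fold change 9.70 ± 1.08, adjusted p = 8.92e-04). Ppbp, the platelet chemokine next to Pf4 in the genome, was at 30.2, 24.2, 23.1 and 10.8 CPM with 2 counts in all microglia libraries together. Ccl6 (282 to 768 CPM against 415 to 621 CPM) and Ccl9 (340.3 to 473 CPM against 440.5 to 576 CPM) did not pass (adjusted p = 0.727 and 0.0719). Of 27 receptors tested, 3 were higher and 8 lower, with a median of -0.22, and 5 were lower without any of microglia replicates 1 to 4 or pvMΦ replicates 2 or 3. The lower ones included Cx3cr1, Csf1r, Il7r and the granulocyte colony-stimulating factor receptor gene Csf3r (log2 fold change -2.20 ± 0.24, adjusted p = 7.79e-04). Ccr1 was higher at 287 to 597 CPM against 47.3 to 138 CPM (log2 fold change 2.40 ± 0.36, adjusted p = 0.00392). Ccr2, the receptor for Ccl2 and Ccl7, was at 297, 22.1, 50.4 and 74.6 CPM against 4.09, 7.22, 5.18, 6.99 and 8.34 CPM (log2 fold change 4.16 ± 0.76, adjusted p = 0.0116), with pvMΦ replicate 1 far above the others. Il13ra1 and Tnfrsf1b did not pass (adjusted p = 0.997 and 0.177).

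Complement components and Fc receptors gave 8 higher and 1 lower of 22 tested, with a median of 0.37. The first component was at like levels, with C1qb at 17039, 16292, 11539 and 9084 CPM in pvMΦ and 17148, 18059.9, 17914, 10181 and 9939 CPM in microglia (log2 fold change -0.18 ± 0.11, adjusted p = 0.479). C1qc was at 7601 to 11888 CPM against 8322 to 14425 CPM (log2 fold change -0.25 ± 0.10, adjusted p = 0.195). Later and regulatory components differed. C2 was at 140.3, 67.8, 111 and 51.4 CPM against 0.162, 0, 0.187, 0.446 and 0.130 CPM (log2 fold change 9.06 ± 0.92, adjusted p = 5.99e-04), and the properdin gene Cfp at 704, 434, 685 and 494 CPM against 1.13, 5.52, 0.375, 0.248 and 1.69 CPM (log2 fold change 8.36 ± 0.88, adjusted p = 6.79e-04). C4b was at 94.2 to 220.2 CPM against 0 to 3.62 CPM (log2 fold change 6.94 ± 1.35, adjusted p = 0.0146), a call lost without pvMΦ replicate 4. These 3 genes were near 0 in microglia. The decay-accelerating factor gene Cd55 was at 6.15, 22.9, 21.03 and 14.9 CPM against 0, 0, 0, 0.0991 and 0.391 CPM (log2 fold change 9.24 ± 1.68, adjusted p = 0.0108). Itgam, a subunit of complement receptor 3, was the lower member (log2 fold change -1.46 ± 0.35, adjusted p = 0.0361), and no member was lower in 7 of the 9 fits that left out a library.

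Innate sensors were divided, with 3 higher and 3 lower of 24 Toll-like receptors and related genes tested and a median log2 fold change of -0.09. Tlr8, Cd14 and the lipopolysaccharide co-receptor gene Ly96 were higher. Tlr3, a sensor of double-stranded RNA, was at 3.19, 3.24, 0.0455 and 30.9 CPM in pvMΦ and 82.4, 39.2, 61.7, 171 and 144 CPM in microglia (log2 fold change -3.96 ± 1.002, adjusted p = 0.0462). Cd180 (log2 fold change -1.47 ± 0.35, adjusted p = 0.0348) and its partner gene Ly86 were lower as well. The calls of Tlr3 and Cd180 were lost in 8 and 7 of the 9 fits that left out a library, and the lower count was 0 to 2 in all 9. Tlr7 (204 to 461 CPM against 251 to 488 CPM) and Tlr2 (244 to 382 CPM against 237 to 525 CPM) did not pass (adjusted p = 0.672 and 0.996). Of 10 genes of nucleotide and adenosine sensing, 5 were lower (3 without pvMΦ replicate 4) and 2 higher, with a median of -1.33. P2ry12, P2ry13 (log2 fold change -1.999 ± 0.23, adjusted p = 9.73e-04), Gpr34 and Entpd1, an enzyme that degrades ATP, were lower. So was the adenosine receptor gene Adora3 (log2 fold change -2.44 ± 0.56, adjusted p = 0.0315), whose call was lost in 7 of 9 such fits. The ATP-gated channel gene P2rx4 was at 386, 495, 465.9 and 419.5 CPM against 82.6, 88.9, 50.7, 108 and 105 CPM (log2 fold change 2.45 ± 0.22, adjusted p = 2.71e-04), and P2rx7 was higher as well. The receptors coupled to G proteins and the channels that were called thus went opposite ways. P2ry6 was at 302 to 440.3 CPM against 411 to 531 CPM (log2 fold change -0.19 ± 0.17, adjusted p = 0.644).

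In lipid handling, 7 genes were higher and 4 lower of 21 tested, with a median log2 fold change of 0.79. The phospholipid transfer protein gene Pltp was at 433, 438, 610.4 and 444 CPM in pvMΦ and 1.51, 2.90, 0.812, 3.82 and 2.28 CPM in microglia (log2 fold change 7.89 ± 0.45, adjusted p = 2.51e-05). The lower members were Lrp1, Npc1, the cholesterol exporter gene Abcg1 (log2 fold change -1.52 ± 0.26, adjusted p = 0.00811) and the lipid receptor gene Trem2 (log2 fold change -1.38 ± 0.26, adjusted p = 0.0134), with 1 of them left without pvMΦ replicate 4. Npc2 and Abca9 did not pass (adjusted p = 0.151 and 0.981). Of 21 genes of cholesterol synthesis, 2 were higher and none lower (4.72% and 2.99% of all genes tested), with a median of 0.86. The call of 1 of them, the regulator gene Insig1, was lost in each of the 9 fits that left out a library. Of 22 glycolysis genes, Slc2a5 was the 1 called, on the lower side, as were 2.99% of all genes tested, and the list's median was -0.27. Ldhb was at 454, 394, 50.8 and 115 CPM against 1083, 1101, 1086, 544 and 564 CPM (log2 fold change -1.96 ± 0.52, adjusted p = 0.054), and the list had up to 4 lower genes without any of pvMΦ replicates 1 to 3.

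Of 35 lysosomal genes tested, 10 were lower and 5 higher (2.99% and 4.72% of all genes tested), with a median of -0.06. Without pvMΦ replicate 4, 6 were lower, and within S232 alone 4 were lower and 3 higher. Cd63, a lysosomal tetraspanin, was higher (log2 fold change 1.62 ± 0.15, adjusted p = 3.56e-04) beside Ctsb and Ctsc. Ctsd was at 7058, 7279, 3776 and 4156 CPM in pvMΦ and 15898, 15487, 14449, 14278 and 12743 CPM in microglia, with no overlap. Grn, progranulin, was at 3006 to 4165 CPM against 3002 to 4191 CPM (log2 fold change -0.06 ± 0.11, adjusted p = 0.868).

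**Figure D3:**
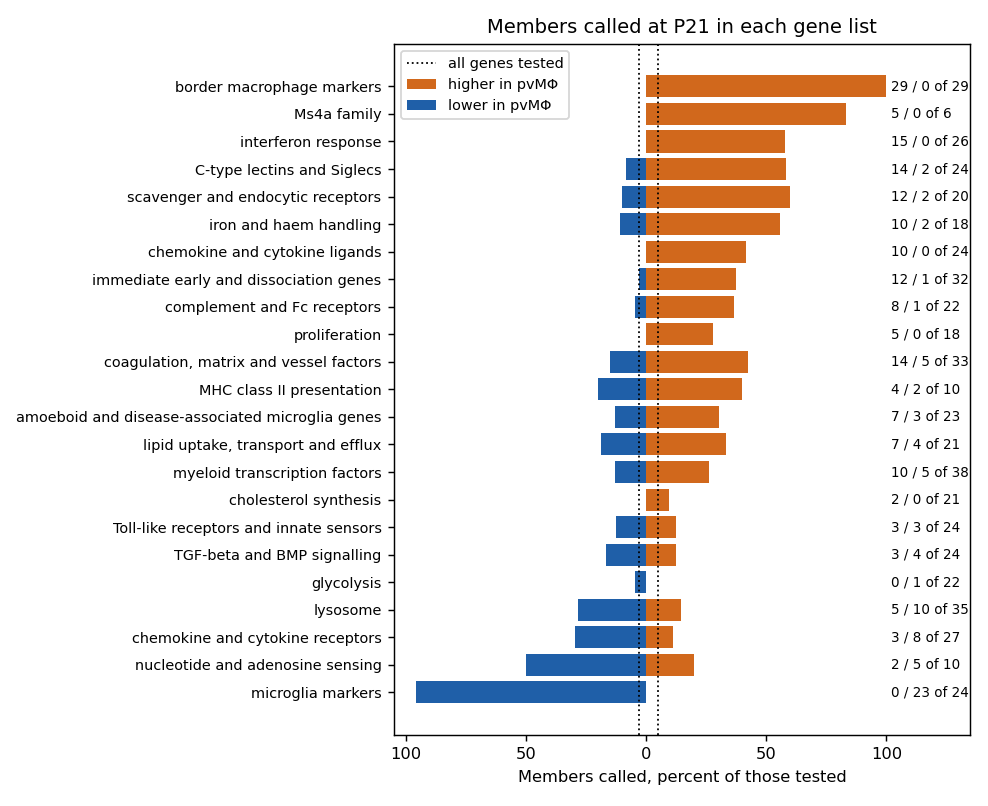
Members called higher (orange, to the right) and lower (blue, to the left) in pvMΦ as a percent of the members tested in 23 gene lists, with counts of higher, lower and tested members at the right, and dotted lines at the shares over all genes tested (4.72% and 2.99%). The border macrophage markers (29 of 29 higher) and the microglial markers (23 of 24 lower) stand at the ends. Members can belong to several lists, so the bars are not independent. The lists were chosen with earlier results of these data known.

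Of transcription factors of myeloid cells, 10 were higher and 5 lower of 38 tested, with a median log2 fold change of 0.35. Maf was at 657, 588, 861 and 494 CPM in pvMΦ and 377, 404, 401, 264 and 290.3 CPM in microglia (log2 fold change 0.87 ± 0.15, adjusted p = 0.00694). Sall1 and Sall3 were lower. The aryl hydrocarbon receptor gene Ahr was at 33.4, 68.4, 26.4 and 51.0 CPM against 0, 0.0547, 0, 4.16 and 0 CPM (log2 fold change 8.99 ± 2.07, adjusted p = 0.0313). Runx3 (log2 fold change 7.91 ± 1.65, adjusted p = 0.0198) and Tfec, a relative of the lysosomal regulator Tfeb (log2 fold change 5.64 ± 1.24, adjusted p = 0.0257), were higher too. Each of these calls was lost in 5 or 6 of the 9 fits that left out a library. The higher count was 6 without microglia replicate 1, 2 or 3.

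Of TGF-beta and BMP signalling genes, 3 were higher and 4 lower of 24 tested, with a median of -0.74. Tgfbr1, the type I receptor, was at 127, 517, 131 and 609 CPM in pvMΦ and 1355, 1370.5, 754, 3442 and 4242 CPM in microglia (log2 fold change -2.27 ± 0.47, adjusted p = 0.0189), a call lost without pvMΦ replicate 4 or microglia replicates 1 or 2. Microglia of S276 held more Tgfbr1 than those of S232. Tgfbr2, the type II receptor, was at 276.2 to 571 CPM against 271 to 735 CPM (log2 fold change -0.06 ± 0.19, adjusted p = 0.924). Bmp2, a ligand, was at 98.7, 49.1, 133 and 114 CPM against 0.485, 0, 0, 0 and 0.326 CPM (log2 fold change 9.25 ± 1.28, adjusted p = 0.00263). Tgfbi, a matrix protein induced by the pathway, was at 602 to 1098 CPM against 13.3 to 46.8 CPM (log2 fold change 4.65 ± 0.44, adjusted p = 3.56e-04). The co-receptor gene Eng was lower (log2 fold change -1.97 ± 0.41, adjusted p = 0.0195), a call lost in 6 of 9 such fits. Id2, a target of BMP signals, was at 423, 372, 103 and 114 CPM against 85.2, 73.3, 81.7, 145 and 115 CPM (log2 fold change 1.38 ± 0.50, adjusted p = 0.167). The lower count was 7 without pvMΦ replicate 1, 1 without pvMΦ replicate 4 and 2 without microglia replicate 1 or 2.

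Of factors of coagulation, matrix and vessels, 14 were higher and 5 lower of 33 tested, with a median log2 fold change of 2.16. Without any one library 12 to 13 were higher, and 3 were lower without microglia replicate 4 or pvMΦ replicates 1 or 3. Beside F13a1, the thrombomodulin gene Thbd was at 78.5, 81.2, 192 and 84.5 CPM in pvMΦ and 0.162, 0, 0, 0 and 1.499 CPM in microglia (log2 fold change 9.55 ± 1.55, adjusted p = 0.00642). Igf1, an insulin-like growth factor, was at 421, 329, 302 and 379 CPM against 1.51, 5.41, 5.06, 2.181 and 15.5 CPM (log2 fold change 6.18 ± 0.66, adjusted p = 7.46e-04). Gas6, the ligand of Mertk, was at 1207, 1049, 1475 and 1045 CPM against 206, 207, 199, 207 and 169 CPM (log2 fold change 2.61 ± 0.14, adjusted p = 1.84e-05). Gas6 and Mertk thus went opposite ways, the latter with a call near the threshold. Those lower included Sparc, the protease inhibitor gene Serpine2, the junction gene F11r and the platelet-derived growth factor gene Pdgfb (log2 fold change -3.85 ± 0.89, adjusted p = 0.0312). Timp2 and Vegfb did not pass (adjusted p = 0.164 and 0.408). Of genes known from amoeboid and disease-associated microglia, 7 were higher and 3 lower (0 lower without pvMΦ replicate 4) of 23 tested, with a median of 1.12. Gpx3, a secreted glutathione peroxidase, was at 558, 628, 761 and 565 CPM against 1.40, 0.273, 0.500, 0.347 and 4.24 CPM (log2 fold change 9.26 ± 0.86, adjusted p = 3.39e-04). The galectin gene Lgals1 was at 427 to 801 CPM against 0.347 to 10.6 CPM (log2 fold change 6.50 ± 0.75, adjusted p = 0.00101), and the adaptor gene Tyrobp at 1515 to 3420.3 CPM against 1016 to 2664 CPM (log2 fold change 0.28 ± 0.21, adjusted p = 0.573).

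Immediate early genes, which also rise when tissue is dissociated, stood at different levels in microglia of the 2 projects. Their sum was 18861, 21347, 25171 and 18380.2 CPM in pvMΦ and 4263, 4331, 7009, 22431 and 17844 CPM in microglia. Microglia of S232 lay below all pvMΦ, and those of S276 lay among or just below them. In the fit with the project term, 12 members were higher and 1 lower of 32 tested, with a median of 1.79. Within S232 all 3 pvMΦ libraries exceeded all 3 microglia libraries in 26 members (11.2% of all genes tested did). Within S276, with 1 library against 2, the pvMΦ library was above both microglia libraries in 15 members and below both in 15 (38.4% and 41.1% of all genes tested). Egr1 was at 1020.2, 1194, 1538 and 1232 CPM in pvMΦ and 255, 283, 530.1, 4291 and 3215 CPM in microglia, a log2 ratio of means of 1.81 within S232 and -1.61 within S276. The growth-arrest gene Btg2 had 2.14 and -0.47. Fos kept its direction in both projects, at 2.59 and 0.85. The stress gene Gadd45b was at 179, 135.3, 145 and 43.8 CPM against 3.34, 6.78, 10.8, 14.3 and 8.93 CPM (log2 fold change 3.84 ± 0.60, adjusted p = 0.0054), and Ier3 at 391 to 898 CPM against 28.0 to 220.3 CPM (log2 fold change 3.52 ± 0.64, adjusted p = 0.0108). Nr4a1 (log2 fold change 3.62 ± 0.76, adjusted p = 0.0207) was higher except without microglia replicate 2, and the chaperone gene Hspa1a (log2 fold change 3.52 ± 0.72, adjusted p = 0.0189) except without microglia replicates 1, 2 or 3. The higher count was 8 without microglia replicate 2 and 18 without pvMΦ replicate 4. The part of cell handling in the other differences was not tested.

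Of proliferation genes, 5 were higher and none lower of 18 tested, with a median log2 fold change of 1.94. Their sum was 739, 819, 756 and 480.5 CPM in pvMΦ and 166, 213, 184, 193 and 199.7 CPM in microglia, with no overlap. The centromere genes Cenpa, at 65.9, 87.8, 42.2 and 47.5 CPM against 12.8, 3.44, 10.6, 2.78 and 9.12 CPM (log2 fold change 2.94 ± 0.57, adjusted p = 0.0141), and Cenpf, at 29.5 to 66.1 CPM against 0.0652 to 2.95 CPM (log2 fold change 6.24 ± 1.18, adjusted p = 0.0132), were called. The others were the topoisomerase gene Top2a (log2 fold change 3.84 ± 0.98, adjusted p = 0.0462), the kinase gene Cdk1 (log2 fold change 1.87 ± 0.43, adjusted p = 0.0307) and the replication helicase gene Mcm6 (log2 fold change 2.72 ± 0.51, adjusted p = 0.0123). The count was 3 without any of microglia replicates 1 to 4 or pvMΦ replicates 2 or 3, 1 without pvMΦ replicate 4, and 1 within S232. Pcna (35.7 to 58.6 CPM against 21.3 to 42.2 CPM) and Mcm3 (44.5 to 117 CPM against 19.9 to 80.9 CPM) did not pass (adjusted p = 0.458 and 0.665).

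**Figure D4:**
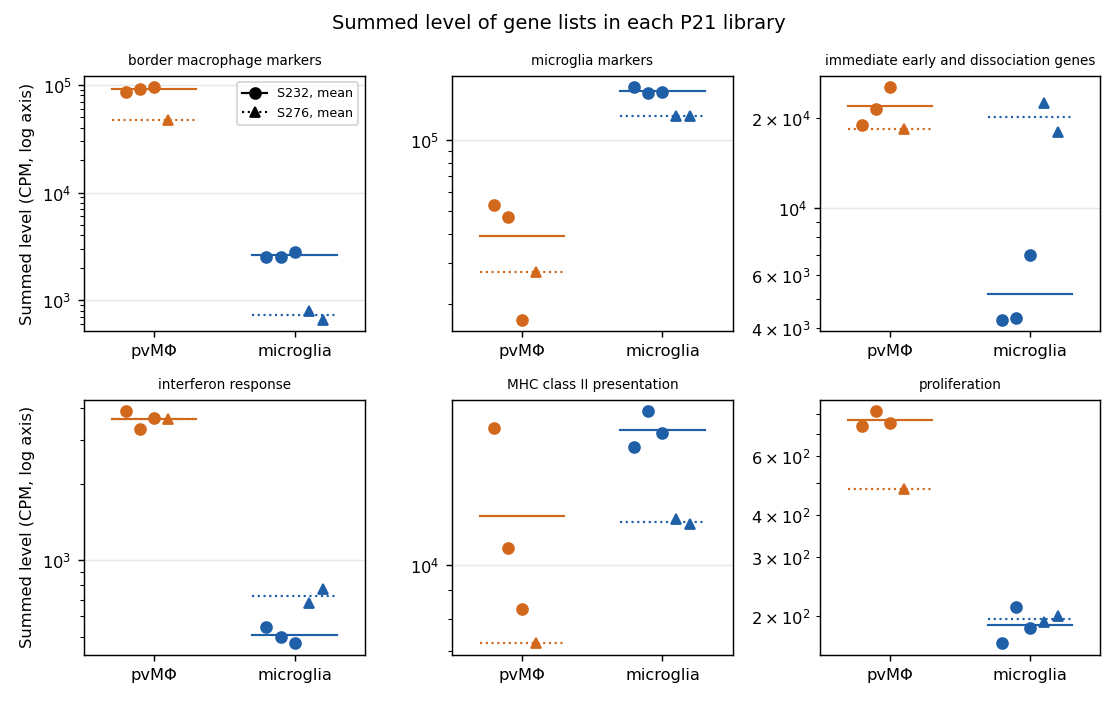
Summed level in CPM (log axis) of 6 gene lists in each P21 library, with circles for S232, triangles for S276 and lines at the mean of each project within a group (solid S232, dotted S276). Border, interferon and proliferation sums separate the groups in both projects, while for immediate early genes microglia run from 4263 to 7009 CPM in S232 and from 17844 to 22431 CPM in S276.

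Markers of other cells were low in both groups, with exceptions that moved with the groups. Of 7 oligodendrocyte genes tested, Trf and the myelin gene Mbp were higher. Mbp was at 229.7, 301, 223 and 177 CPM in pvMΦ and 17.6, 43.7, 3.25, 22.5 and 35.6 CPM in microglia (log2 fold change 3.31 ± 0.64, adjusted p = 0.014), a call lost without microglia replicate 1 or pvMΦ replicate 4. Of 6 fibroblast genes tested, Apod, at 86.5 to 144 CPM against 0 to 1.11 CPM (log2 fold change 9.38 ± 1.07, adjusted p = 9.73e-04), and Igfbp2, at 17.3 to 35.4 CPM against 0 to 0.326 CPM (log2 fold change 9.79 ± 1.74, adjusted p = 0.00993), were higher. The count was 1 without pvMΦ replicate 4 and 4 without replicate 1. Their list summed to 166 to 278 CPM in pvMΦ and 1.83, 1.26, 17.0, 3.52 and 128 CPM in microglia, so that microglia replicate 5 alone approached pvMΦ. Of 6 endothelial genes, Egfl7 was higher, at 102.1 to 151 CPM against 0.149 to 5.25 CPM (log2 fold change 5.87 ± 0.70, adjusted p = 0.00121). Pecam1 was lower, at 0 to 5.15 CPM against 22.8 to 51.5 CPM (log2 fold change -6.43 ± 1.63, adjusted p = 0.0468), a call lost in 8 of 9 fits that left out a library. Of 6 astrocyte genes, the glutamate transporter gene Slc1a3 was lower, at 2.41 to 58.4 CPM against 179.6 to 269 CPM (log2 fold change -3.33 ± 0.67, adjusted p = 0.0169), a call lost without pvMΦ replicate 2. The other 5 were not called, and the median log2 fold change of the 6 was 2.64, on the side opposite to Slc1a3. None of 10 neuronal genes tested was called (Meg3, adjusted p = 0.0767, and Camk2a, adjusted p = 0.354), with sums of 22.8 to 58.3 CPM in pvMΦ and 6.69 to 13.2 CPM in microglia. The part of these cells in the result was not tested.

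Lists of markers of blood-borne cells were summed for each library. The monocyte list summed to 299, 23.4, 51.7 and 78.2 CPM in pvMΦ and 9.05 to 13.2 CPM in microglia, and Ccr2 made up nearly all of it in pvMΦ. Plac8 was at 0.228 to 1.93 CPM against 0.187 to 4.31 CPM (log2 fold change -2.26 ± 1.14, adjusted p = 0.339). Cd4, which macrophages can also transcribe, was the 1 tested gene of the T and NK cell list, at 75.0, 91.2, 116 and 86.1 CPM in pvMΦ and 0 to 0.323 CPM in microglia (log2 fold change 9.34 ± 0.85, adjusted p = 3.17e-04). Of 6 dendritic cell genes, Cd209a was higher at 0.615, 81.8, 32.3 and 105 CPM against 0.431, 0, 0, 0 and 0 CPM (log2 fold change 9.26 ± 1.97, adjusted p = 0.0223). PvMΦ replicate 1 was near the level of microglia, and the call was lost in 7 of 9 fits that left out a library. Batf3 and Zbtb46 did not pass (adjusted p = 0.818 and 0.193). The median log2 fold change of the 6 dendritic cell genes was -1.52, on the side opposite to Cd209a. The B cell list summed to 357 to 966 CPM and 585 to 731 CPM, and none of its 3 tested genes was called (Ighm, log2 fold change -0.24 ± 0.26, adjusted p = 0.729). No neutrophil, mast cell or ependymal gene passed the low-count filter, and none of 3 erythroid and 2 mural genes tested was called.

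Against the 3 mMΦ libraries at P21, all of S232, no gene was called for pvMΦ by edgeR (0% of 13229 tested). At an unadjusted p under 0.05 there were 1080 genes (8.16%), while DESeq2 called 341 at an adjusted p under 0.05 and limma with sample weights 0. Leaving out pvMΦ replicate 3, the one lowest in microglial markers, gave 46 calls, and leaving out any other pvMΦ or mMΦ library gave 0 to 4. The microglia libraries of this fit were not left out. Among the named and listed genes, several microglial markers came near the threshold, at higher levels in pvMΦ than in mMΦ. Abcg1, which is not on that marker list, came near as well (log2 fold change of pvMΦ over mMΦ 4.36 ± 0.76, adjusted p = 0.141). Siglech was at 161, 124 and 188 CPM in mMΦ against 853, 1132, 404 and 275.98 CPM in pvMΦ, a log2 fold change of pvMΦ over mMΦ of 2.28 ± 0.29, adjusted p = 0.0877. Tmem119 was at 122, 104 and 124 CPM in mMΦ against 251 to 889 CPM in pvMΦ (2.44 ± 0.35, adjusted p = 0.0886), and P2ry12 at 512, 697 and 481 CPM against 918 to 3256 CPM (1.92 ± 0.34, adjusted p = 0.141). All 4 pvMΦ libraries exceeded all 3 mMΦ libraries for these 3 genes, and the share of all genes that did so was not counted. The 3 were named for standing near the threshold of this same test, so their lack of overlap is no further support. Border markers were at like levels or higher in mMΦ, with Mrc1 at 3267, 4014 and 3623 CPM in mMΦ (-0.71 ± 0.34, adjusted p = 0.634) and Cd163 at 1036, 1224 and 1232 CPM (-0.85 ± 0.44, adjusted p = 0.661). Pf4 was at 3042, 2487 and 2893 CPM in mMΦ (0.41 ± 0.38, adjusted p = 0.838) and Apoe at 65595, 76834 and 63885 CPM (0.27 ± 0.36, adjusted p = 0.914). H2-Aa was at 234, 56.5 and 118 CPM in mMΦ (2.06 ± 0.95, adjusted p = 0.612).

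The log2 difference pvMΦ minus microglia was higher at P21 than at P10 for 13 genes and lower for 2 by a test of the difference itself in edgeR over 15 libraries. These 15 genes are 0.107% of 14012 tested, and 989 (7.06%) passed an unadjusted p under 0.05. All P10 libraries are of S232. Mrc1 was at 3038, 2157 and 2416 CPM in pvMΦ and 349, 369.7 and 324 CPM in microglia at P10, against 1809 to 3003 and 14.9 to 45.3 CPM at P21, a change of the log2 difference from P10 to P21 of 3.30 ± 0.44, adjusted p = 0.0135. Here pvMΦ overlapped between the ages and microglia did not. The shares of all genes without overlap in such comparisons were not counted, here and below. Gpx3 was at 139, 139 and 162 CPM in microglia at P10 and 0.273 to 4.24 CPM at P21, with pvMΦ at 301 to 366 and 558 to 761 CPM (8.07 ± 0.90, adjusted p = 0.00381), and neither population overlapped between the ages. Igfbp4, a binding protein of insulin-like growth factors, was at 575 to 656 CPM and then 45.9 to 93.9 CPM in microglia, and at 1583 to 1783 and 701 to 1195 CPM in pvMΦ (2.09 ± 0.28, adjusted p = 0.0136). Gas6 (1.40 ± 0.21, adjusted p = 0.0338), the peroxiredoxin gene Prdx4 (1.18 ± 0.19, adjusted p = 0.0338) and the GTPase regulator gene Arhgap18 (2.30 ± 0.37, adjusted p = 0.0338) were also among the 13.

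Lyz2 was at 3038, 3267 and 3236 CPM in pvMΦ at P10 and 4125 to 11214 CPM at P21, and at 540.5, 553 and 483 and then 66.2 to 321 CPM in microglia (2.67 ± 0.24, adjusted p = 7.60e-04). Apoe was at 31782 to 37154 CPM in pvMΦ and 5037 to 6337 CPM in microglia at P10 (3.01 ± 0.43, adjusted p = 0.0198), with pvMΦ replicate 4 of S276 below the P10 range at P21 and the other 3 above it. Cd74 was at 328, 306 and 242 CPM and then 577 to 4175 CPM in pvMΦ, against 187, 221 and 182 and 49.8 to 156 CPM in microglia (3.54 ± 0.59, adjusted p = 0.046). The metallothionein gene Mt2 was at 5.41 to 5.60 and then 13.4 to 63.7 CPM in pvMΦ, against 4.12 to 4.92 and 0.743 to 2.62 CPM (4.11 ± 0.70, adjusted p = 0.0467). The stress factor gene Atf3, an immediate early gene, was at 227 to 354 and 789.9 to 1994 CPM in pvMΦ, against 493.04 to 545 and 152 to 456 CPM in microglia (2.94 ± 0.50, adjusted p = 0.0467). Of cell cycle genes, Cdk1 was at 148, 172 and 160.5 CPM in pvMΦ and 244, 246 and 208 CPM in microglia at P10, and at 37.3 to 57.9 and 4.24 to 22.7 CPM at P21 (2.37 ± 0.39, adjusted p = 0.046). Cdca8, a subunit of the chromosomal passenger complex, was at 68.8 to 90.5 and 82.5 to 97.9 CPM at P10, and at 33.2, 14.3, 17.3 and 2.48 and 0.0496 to 0.492 CPM at P21 (5.84 ± 0.70, adjusted p = 0.00614). Every microglia library exceeded every pvMΦ library at P10 for Cdk1 and the groups overlapped for Cdca8, while at P21 pvMΦ was higher for both without overlap.

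The 2 genes with a lower log2 difference at P21 were Clcf1 and Sesn1. Clcf1 was at 1.12 to 2.80 CPM in pvMΦ at P10 with 1 count in all at P21, and at 12.9 to 18.1 and then 4.54 to 36.2 CPM in microglia (-7.26 ± 1.21, adjusted p = 0.046). The stress sensor gene Sesn1 was at 136 to 154 CPM in microglia at P10 and 278 to 497 CPM at P21, and at 401 to 481 and 348 to 755 CPM in pvMΦ (-1.25 ± 0.19, adjusted p = 0.0338). DESeq2 called 306 genes in this test. With edgeR, 75 were called without pvMΦ P21 replicate 4, 31 without replicate 3 and 27 without replicate 1, while 1 to 6 were called without any of the P10 libraries. With P21 microglia replicates 1, 2 and 4 left out in turn, 8 or 9 were called. The 15 genes were among the calls without pvMΦ P21 replicate 1 and without replicate 4.

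**Figure D5:**
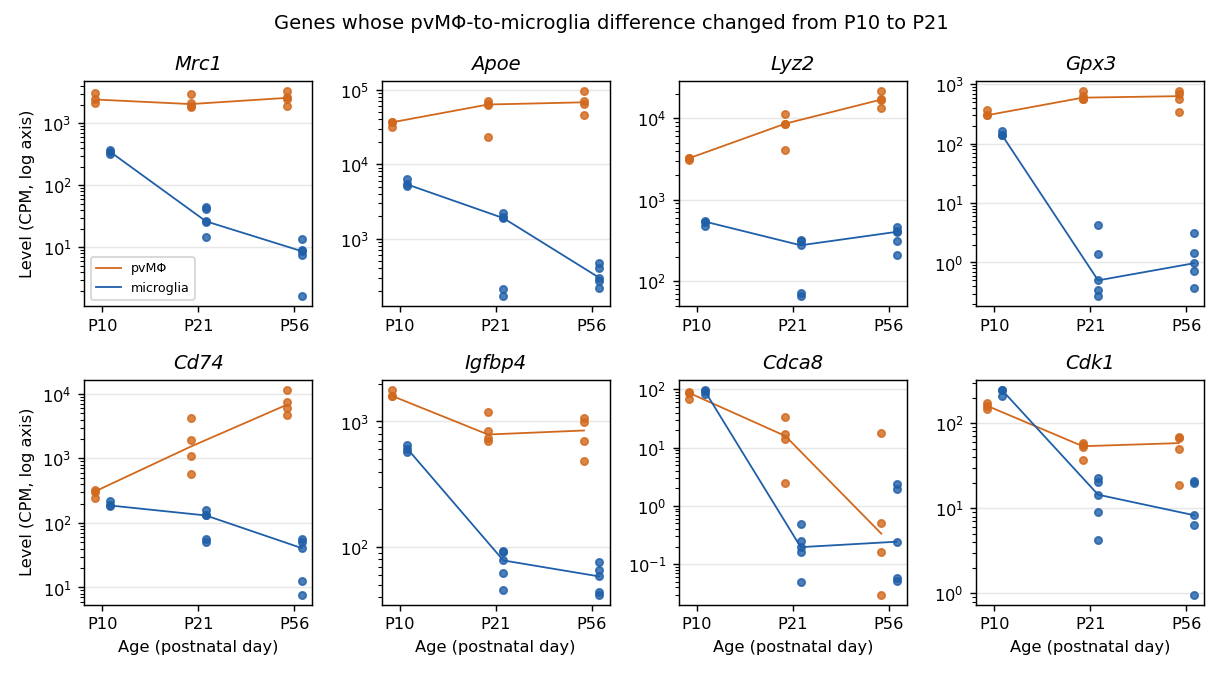
Level in CPM (log axis) of 8 genes at P10, P21 and P56 in pvMΦ (orange) and microglia (blue), 1 point per library and lines through the medians. Mrc1, Gpx3 and Igfbp4 drop in microglia from P10 to P21, Lyz2 and Cd74 diverge, and Cdk1 and Cdca8 are at or above the pvMΦ level in microglia at P10 and below it at P21.

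Between P21 and P56 no gene's difference changed by the same test in edgeR (0% of 13120 tested), with 801 genes (6.11%) at an unadjusted p under 0.05. DESeq2 called 147 and limma with sample weights 0. Without pvMΦ P56 replicate 4, 18 were called. Among the named and listed genes, those nearest to the threshold included Cd74 and Tslp. Cd74 was at 6020.4, 11535, 4787 and 7499 CPM in pvMΦ and 50.9, 12.6, 7.76, 40.6 and 55.5 CPM in microglia at P56 (3.49 ± 0.86, adjusted p = 0.637). Tslp was at 142, 99.7, 121 and 47.5 CPM in pvMΦ and 0, 53.9, 4.79, 1.30 and 0.914 CPM in microglia at P56 (-7.66 ± 1.87, adjusted p = 0.637). These are changes of the log2 difference from P21 to P56. For Cd74 all 4 pvMΦ libraries at P56 exceeded all 4 at P21.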

How the data were processed

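RNA of sorted pvMΦ and microglia was measured in 9 libraries at P21. The deposited values are whole-number counts per gene in 1 table of 53546 symbols, made by the authors with bcl2fastq 2.18, STAR 2.7.8a and featureCounts 2.0.2, per the submitters' processing notes. The genome build, annotation, strand setting and treatment of multiply aligned reads were not stated in those notes, so families of near-identical genes and overlapping genes are uncertain. Totals ran from 15967501 to 22737811 counts, and chi-square per degree of freedom between libraries of a group was 44.7 to 379, so libraries of a group differed by more than counting noise. For genes with few counts depth also limits precision. Fold bounds without 1 library were added after the data were seen.

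Genes were kept by filterByExpr (minimum count 10, minimum total 15) and scaled by TMM. They were tested with the quasi-likelihood F test (robust) of edgeR 4.0.16 in R 4.3.3 on the libraries compared, with a term for the project. The fit against mMΦ also held the microglia. Adjusted p-values are Benjamini-Hochberg values over all genes tested, called under 0.05, and each standard error is the size of the log2 fold change over the root of F. CPM values use TMM factors over all 45 libraries. The script was tested on simulated data. Alternatives were DESeq2 1.42.0, limma 3.58.1 (voom with sample weights), DESeq2 size factors, no filter, no project term, S232 alone, a replicate block and all 45 libraries. Each library of the groups compared was also left out in turn. Leaving out both replicates numbered 1 was added after seeing the data. Replicate numbers were not treated as pairs in the main tests.

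The comparison, the 37 gene lists and the followed genes were chosen with earlier results of these data known. Named were 20 followed genes, the 15 largest folds in each direction (called, at least 5 CPM, no overlap), the 10 highest levels in each direction, 6 per direction for the other tests, and per list up to 4 called members by size and 2 uncalled by level. Further list members named beside a count (among them Lrp1, Mertk, Gas6, Ftl1, Slc40a1, H2-DMa, Itgam, P2rx7, Abcg1, Trem2, Pdgfb and Fos) were chosen after their values were seen. Some genes that this rule covers are not reported here. Of the list symbols, 3 are not in the table. Promoter sequences are RefSeq's for GRCm38.p6.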

Additional observations from a re-analysis of the deposited data

Results flagged for a closer look

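In groups of 4 or 5 libraries, 142 followed genes and list sums were examined for a library far from the others, and 11 were found, where chance gives about 1 in 20. In pvMΦ, Lyve1 stood apart in replicate 3 at 1967 CPM. The sum of coagulation, matrix and vessel factors stood apart in replicate 4 at 10132 CPM, that of nucleotide and adenosine sensing in replicate 3 at 3559.6 CPM, that of astrocyte markers in replicate 4 at 134 CPM and that of mast cell markers in replicate 1 at 57.6 CPM. In microglia, replicate 5 stood apart for innate sensors at 5009 CPM and for markers of other cells, with mural genes at 6.71 CPM, fibroblast genes at 128 CPM, ependymal genes at 43.8 CPM and neutrophil genes at 11.1 CPM. Mast cell genes stood apart in microglia replicate 1 at 4.09 CPM.

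The difference between pvMΦ and microglia was not the same at P21 as at P10 by the test of that difference for 15 genes, given here as the change of the log2 difference from P10 to P21. The largest were Gpx3 at 8.07, Cdca8 at 5.84, Mt2 at 4.11, Cd74 at 3.54 and Mrc1 at 3.30. Apoe followed at 3.01, Atf3 at 2.94, Lyz2 at 2.67, Cdk1 at 2.37, Arhgap18 at 2.30 and Igfbp4 at 2.09. Gas6 was at 1.40 and Prdx4 at 1.18, while Sesn1 was at -1.25 and Clcf1 at -7.26.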

How the results depend on the processing

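Against the 545 higher and 346 lower genes of pvMΦ at P21, DESeq2 called 1036 and 846, S232 alone 236 and 101, and a fit of all 45 libraries 1083 and 527. DESeq2 size factors (517 and 344), no low-count filter (559 and 377), limma (654 and 487), no project term (454 and 320) and leaving out both replicates numbered 1 (445 and 316) stayed within 1.5 times. Leaving out each library gave 306 to 616 higher and 198 to 484 lower genes. The share of higher genes among calls was 61.2% and moved to 70.0% within S232, where both counts came from fewer samples. Calls shared with each alternative kept their direction, 882 of 891 with DESeq2 and 314 with S232 alone. The median log2 fold change of all genes was -0.17 with the replicate block. Libraries of S232 that share a replicate number showed no positive correlation of deviations (-0.032, -0.016 and -0.052 for numbers 1, 2 and 3). A check over 3 libraries a side cannot exclude a pairing. With the replicate block in place of the project term, 224 genes were higher and 126 lower, the P10 comparison had 5 calls and the comparisons with mMΦ and P56 had 0. Against mMΦ (0 calls), there were 23 calls with no low-count filter, 341 with DESeq2, 53 with all 45 libraries, and 0 to 46 when each pvMΦ or mMΦ library was left out. For P21 against P10 (15 calls), there were 31 with no low-count filter, 306 with DESeq2, 35 with limma, 2 with no project term and 58 within S232, and 1 to 75 when each library was left out. For P56 against P21 (0 calls), there were 105 with no low-count filter, 147 with DESeq2, 3 within S232, 9 with all 45 libraries, and 0 to 18 when each library was left out. The cause of these moves was not tested. Of 126 named genes called at P21, 98 to 120 kept their call when each library was left out, 110 with no low-count filter, 79 of 124 within S232 and 76 with the replicate block, and none reversed.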
